A study of Rattus norvegicus with 4 samples.

Results

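The collagen genes of rat left ventricle are described here in animals with reduced kidney mass, with and without an inhibitor of the microRNA miR-21-5p. Members were taken by gene symbol (Col, a type number, the letter a and a chain number) from the 22861 loci of the expression table. The pattern took 24 symbols, of which 23 encode collagen chains. The other, Col4a3bp, encodes a ceramide transfer protein and was left out of all counts (15.1 and 17.4 FPKM). Of 45 collagen genes looked for, 22 were not analysed here, among them the partner chains Col4a2, Col6a1 and Col6a3.

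The rats were male Sprague Dawley animals kept on a 0.4% Dyets chow. All had 5/6Nx surgery, which leaves a remnant of kidney tissue, when they were 10 weeks old. The groups differed in the locked nucleic acid given through the jugular vein, either anti-miR-21, directed against miR-21-5p, or the scrambled control anti-scr. Courses of 3 daily doses of 1 mg/kg were given in weeks 1 and 4 after the operation, and left ventricles were collected in week 7. Tissue of 2 to 3 rats was pooled for each library, and each group had 2 libraries, with 47826514 to 54952098 reads, of which 94.0% to 94.4% mapped. Every rat used here carried the nephrectomy and received an oligonucleotide, so neither is compared with its absence. The labels name no cell type or organ that took up the oligonucleotide.

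Collagens are triple-helical proteins of the extracellular matrix. Fibrillar collagens such as types I, III and V form the load-bearing fibres of the heart wall, type IV forms the sheet of the basement membrane around myocytes and vessels, and smaller families tie these structures together. Fibroblasts make most of the fibrillar collagen of the heart, and its build-up between myocytes is the hallmark of fibrosis. A microRNA pairs with messenger RNAs through its seed, bases 2 to 8 from the 5′ end, and lowers their level or translation; miR-21-5p is well studied in cardiac fibroblasts. The inhibited microRNA is shown with its seed in capitals, from RefSeq (GRCr8, chr10:71902653-71902674, minus strand).
rno-miR-21-5p: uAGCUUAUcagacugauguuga

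Promoters are shown for the called collagen, Col8a1, for Col5a2, another member with an unadjusted p under 0.05, and for Col4a1, an abundant member with nearly equal levels. RefSeq windows from 250 bases before to 50 after the start of the gene matched 18 of the 23 genes. Col3a1, Col1a1, Col14a1, Col6a2 and Col2a1 had no window. Among members with an unadjusted p under 0.05, only Col8a1 and Col5a2 had one. Capitals mark GGGCGG, the core of an Sp1 site, CCAAT, the core of an NF-Y site, and TATAAA, each on either strand. By their letters ATTGG, the other strand of CCAAT, could run into GGGCGG; no collagen window held such an overlap. The windows, on GRCr8, are chr11:56246532-56246831, plus strand, for Col8a1, chr9:55090102-55090401, minus strand, for Col5a2 and chr16:84885347-84885646, plus strand, for Col4a1.
Col8a1: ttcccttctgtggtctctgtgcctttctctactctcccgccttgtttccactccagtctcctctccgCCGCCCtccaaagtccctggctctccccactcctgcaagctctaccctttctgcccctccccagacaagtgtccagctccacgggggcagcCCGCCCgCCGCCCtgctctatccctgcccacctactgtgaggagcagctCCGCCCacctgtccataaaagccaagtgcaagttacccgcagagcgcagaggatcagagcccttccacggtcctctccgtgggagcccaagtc
Col5a2: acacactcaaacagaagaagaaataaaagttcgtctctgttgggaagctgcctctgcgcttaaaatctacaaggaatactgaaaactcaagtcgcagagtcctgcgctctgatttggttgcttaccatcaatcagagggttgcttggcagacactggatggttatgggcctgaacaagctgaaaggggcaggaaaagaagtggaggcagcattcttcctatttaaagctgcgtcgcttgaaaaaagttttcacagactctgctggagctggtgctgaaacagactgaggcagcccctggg
Col4a1: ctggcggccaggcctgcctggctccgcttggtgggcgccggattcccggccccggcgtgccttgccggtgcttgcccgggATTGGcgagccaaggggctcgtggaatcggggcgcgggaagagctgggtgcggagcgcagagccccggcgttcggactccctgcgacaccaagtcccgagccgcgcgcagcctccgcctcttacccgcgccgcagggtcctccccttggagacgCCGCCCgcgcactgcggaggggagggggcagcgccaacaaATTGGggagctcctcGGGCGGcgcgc
The Col8a1 window held GGGCGG 4 times on the other strand, at positions -183, -92, -85 and -43 from the start. The Col4a1 window held both GGGCGG and CCAAT, and the Col5a2 window none of the 3 motifs. Of the 18 collagen windows, 11 held GGGCGG, 4 held CCAAT and 3 held TATAAA. Over all 33469 windows of this length the shares were 33.1%, 37.5% and 14.2%. The Col4a1 window shares 176 of its 300 bases with the window of Col4a2, which is read from the opposite strand. These are matches of letters, not sites of binding.

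Levels are FPKM, the authors' fragment counts scaled to transcript length and library size, with 1 value per group and none per pool. Being per length, they allow different chains to be set side by side. A log2 fold is the anti-miR-21 level divided by the anti-scr level, on the log2 scale. Pairs of values are given in the order anti-scr, anti-miR-21, and a lone number in parentheses after a gene or its levels is its log2 fold. The level of miR-21-5p itself was not analysed here. A gene was called where its deposited q lay under 0.05. In bulk tissue, fewer cells of a type and less RNA per cell cannot be told apart.

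With anti-miR-21, the short-chain collagen gene Col8a1 rose, while Col3a1, the most abundant of the measured collagen transcripts, was higher in value but not called. Of 6 fibrillar genes with a mean FPKM of at least 1, 5 were higher in value and Col5a3 was lower. Of 2 fibril-associated genes at that level, Col14a1 was higher and Col16a1 lower. The basement membrane chain Col4a1 stood nearly level. The microfilament chain Col6a2 and the basement membrane collagen Col18a1 were lower in value. Of the 12 collagen genes tested, 1 was called in the authors' deposited table, against 0.815% of all 12876 tested loci. It was called higher, as were 0.186% of tested loci, and 0 were called lower, against 0.629%. At an unadjusted p under 0.05 in the authors' deposited table, 5 collagen genes passed, against 9.3% of tested loci. Of the 5, 4 were higher, against 3.18% of tested loci, and 1 was lower, against 6.11%. By another reading of the deposited statistic, given with Col8a1 below, 2 of the 12 passed at that unadjusted level, Col8a1 and Col3a1. Over all loci with a statistic, 469 of 12862 did. Under that reading 0 collagen genes were called after adjustment. Among the 13 genes with a mean FPKM of at least 1, 9 were higher and 4 lower in value, and their median log2 fold was 0.24. All loci at that level had 6895 higher and 6047 lower, with a median of 0.03. Among the 22 members with a value above 0 in both groups, 15 were higher and 7 lower, with a median of 0.11. The median of 0.24 was 0.13 over 12 genes without Col3a1 and 0.065 over 18 genes with a floor of 0.1 in place of 1. Over the 13 genes it was 0.099 after the typical fold of loci in equally gene-dense regions was subtracted.

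**Figure D1:**
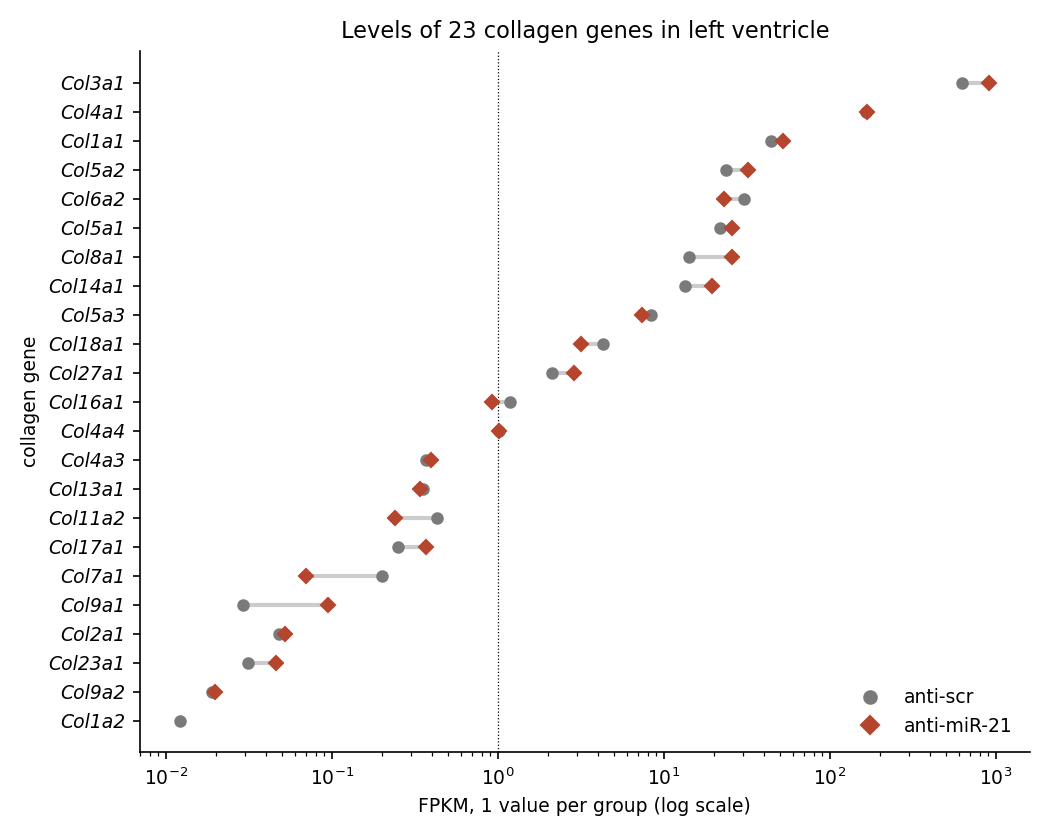
FPKM of the 23 collagen genes on a log scale, 1 authors' value per group, with anti-scr as grey circles and anti-miR-21 as red diamonds; the dotted line is an FPKM of 1. Col3a1 lies above all others at 627.0 and 915.5 FPKM, 10 genes lie under a mean FPKM of 1, and Col1a2, listed at 0 with anti-miR-21, has 1 symbol only.

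Fibrillar collagens made up 728.0 of the 958.7 FPKM summed over the 23 genes under the control, most of it from Col3a1. Each other fibrillar gene lay under Col4a1 in level. Col3a1, the chain of type III collagen, which forms thin extensible fibres, stood at 627.0 FPKM in anti-scr hearts and 915.5 in anti-miR-21 hearts (chromosome 9, 51689491 to 51725418 on rn5). Its log2 fold was 0.55, with p = 0.0055 and q = 0.213 in the authors' deposited table. It had the highest level in both groups among the collagen chains with a usable value, which leaves out Col1a2 and the chains not analysed here. Col1a1, the main chain of type I collagen, stood at 44.4 and 52.6 FPKM, a log2 fold of 0.24 (p = 0.188 and q = 0.739 in the authors' deposited table; chromosome 10, 82563433 to 82580364). The level of Col3a1 was 14.1 times that of Col1a1 under the control and 17.4 times under the inhibitor.

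Type V collagen starts type I fibrils and limits their width, and its chains were not all on the same side in value. Col5a2 stood at 23.8 and 32.0 FPKM, a log2 fold of 0.43 (p = 0.0226 and q = 0.405 in the authors' deposited table). Col5a1, its usual partner, stood at 21.8 and 25.8 FPKM (0.24). Col5a3, a less common chain, stood at 8.42 and 7.45 FPKM (-0.18). Col5a2 was 1.09 times Col5a1 under the control and 1.24 times under the inhibitor, and neither Col5a1 nor Col5a3 had an unadjusted p under 0.05 in the authors' deposited table. Col27a1, a fibrillar collagen best known from cartilage, was low, at 2.12 and 2.88 FPKM (0.44). Of the 6 fibrillar genes with a mean FPKM of at least 1, 5 were higher in value.

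Col1a2, which encodes the other chain of type I collagen, had no usable value. Its 2 loci on chromosome 4, 29443177 to 29478105 and 31405252 to 31440180, each spanned 34928 bases. Both stood at 0.0123 FPKM under the control and were listed at 0 under the inhibitor, and no fold is given. The table had 208 symbols with loci of equal span at different places on 1 chromosome, and for 205 of them (98.6%) every such locus had a mean FPKM under 0.1. Among symbols with 1 locus this held for 4560 of 15244 (29.9%). The part of this duplication in the Col1a2 values was not tested.

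Col8a1 encodes a short-chain collagen that forms open networks in vessel walls. It stood at 14.3 FPKM under the control and 25.7 under the inhibitor, a log2 fold of 0.85 (p = 5e-05 and q = 0.0131 in the authors' deposited table; chromosome 11, 48072395 to 48204523). That p is the smallest in the table, shared by 45 loci. Relative to Col1a1 its level was 0.321 under the control and 0.489 under the inhibitor. The deposited statistic of Col8a1 was 3.06. Read as a standard normal deviate, which the sources used here do not state, the statistic gives an adjusted p of 0.296 over the tested loci (Benjamini-Hochberg, from the Cuffdiff statistic), which ends the call.

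Col14a1 was the most abundant of the collagens that coat fibrils (FACIT, fibril-associated collagens with interrupted triple helices). It stood at 13.5 and 19.4 FPKM, a log2 fold of 0.52 (p = 0.00655 and q = 0.232 in the authors' deposited table; chromosome 7, 95678263 to 95896126). Col16a1, another chain of this family, stood at 1.19 and 0.928 FPKM (-0.36).

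Col6a2, a chain of the beaded microfilaments that link basement membranes to the matrix, stood at 30.4 and 23.2 FPKM, a log2 fold of -0.39 (p = 0.0466 and q = 0.530 in the authors' deposited table). Col18a1, a basement membrane collagen whose end fragment is endostatin, stood at 4.33 and 3.18 FPKM (-0.45). Both were lower in value and neither was called.

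Of the type IV chains, Col4a1 was nearly level at its more abundant locus. It stood there at 164.8 and 168.0 FPKM, a log2 fold of 0.03 (p = 0.892 and q = 0.993 in the authors' deposited table). Its other locus, on the same interval, stood at 1.64 and 2.49 FPKM (0.60, with p = 0.856 in the authors' deposited table). Among the collagen chains with a usable value Col4a1 came next in level after Col3a1, which stood at 3.81 times the Col4a1 level under the control and 5.45 times under the inhibitor. Col4a3 and Col4a4, the chains best known from the filtration barrier of the kidney, share 1 deposited interval on chromosome 9. Col4a4 stood at 1.01 and 1.02 FPKM and Col4a3 at 0.371 and 0.398 FPKM, and neither was tested in the authors' deposited table.

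**Figure D2:**
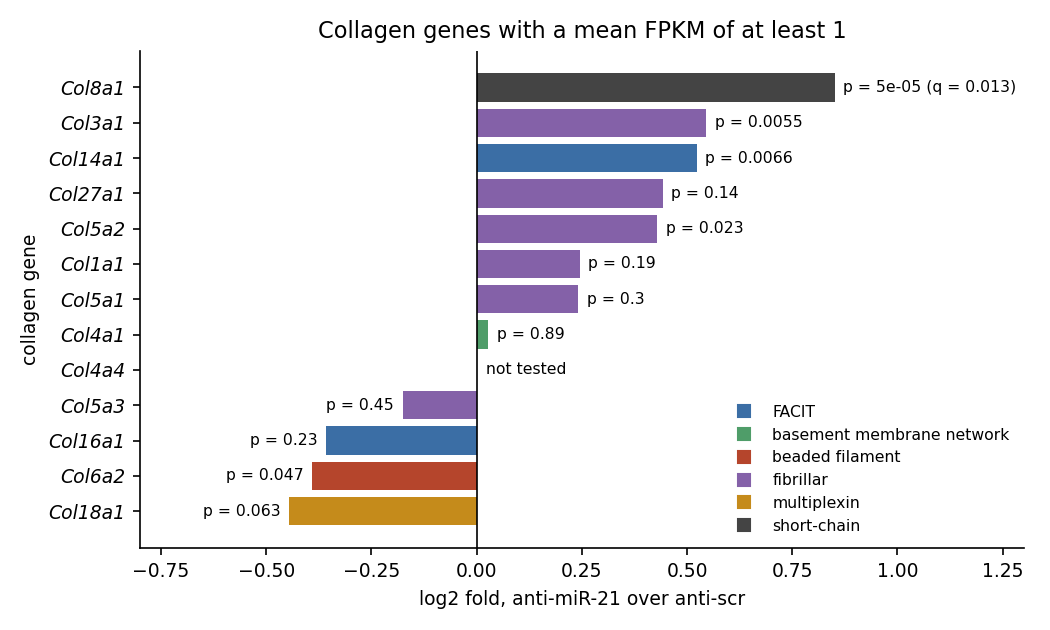
Log2 fold (anti-miR-21 over anti-scr) of the 13 collagen genes with a mean FPKM of at least 1, coloured by structural class, with the deposited p beside each bar and the deposited q for the called gene; there is 1 value per group and so no error bar. Col8a1 is highest at 0.85, followed by Col3a1 at 0.55 and Col14a1 at 0.52, and Col18a1 is lowest at -0.45.

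The 10 collagen genes with a mean FPKM under 1 had group values from 0 to 0.431 FPKM, and none was tested in the authors' deposited table. They were the transmembrane collagens Col13a1, Col17a1 and Col23a1, the cartilage collagens Col2a1, Col9a1, Col9a2 and Col11a2, the anchoring fibril collagen Col7a1 at a locus shared with Ucn2, and Col4a3 and Col1a2. The members nearest to that floor from above were Col4a4 and Col16a1, and the highest below it was Col4a3, with a mean of 0.385 FPKM.

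The summed FPKM of the 23 genes was 958.7 under the control and 1279 under the inhibitor, a log2 ratio of 0.42. Of the difference of 320.5 FPKM, Col3a1 made up 288.5. Its share of the sum was 65.4% and 71.6%. Without Col3a1 the sums were 331.7 and 363.7 FPKM, a log2 ratio of 0.13. Col4a1 made up 17.2% and 13.1%, Col1a1 4.63% and 4.11%, and Col8a1 1.49% and 2.01%. These shares lack a usable Col1a2 and the chains not analysed here.

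In each of the following pairs of neighbouring collagen genes, both folds lay on the same side of 0. Col3a1 and Col5a2 lie 31957 bases apart on chromosome 9, with log2 folds of 0.55 and 0.43, and each was the only measured named locus within 500 kb of the other. Col18a1 and Col6a2 lie 436243 bases apart on chromosome 20, with -0.45 and -0.39. Measured named loci within 500 kb had a median log2 fold of -0.16 for Col18a1 (8 loci) and 0.19 for Col6a2 (7 loci). Across the 13 genes the fold was lower where more named loci lay within 500 kb, with a Spearman's rho of -0.64 and a Pearson's r of -0.56. These are points across genes that share the same libraries. The 9 genes higher in value had a median of 5 named loci nearby (2 to 17), the 4 lower ones 13.5 (8 to 30), and all 9860 named loci with a position at that level 11. When those loci were divided into 4 strata by density, the median log2 fold was 0.14 in the sparsest, where Col8a1, Col3a1, Col14a1, Col5a1 and Col5a2 lie, and -0.23 in the densest, where Col5a3 lies. Col1a1, with 17 named loci nearby, had 0.24 where its stratum had -0.04 and its 12 measured neighbours had a median of -0.17. The part of gene density in the collagen folds was not tested.

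**Figure D3:**
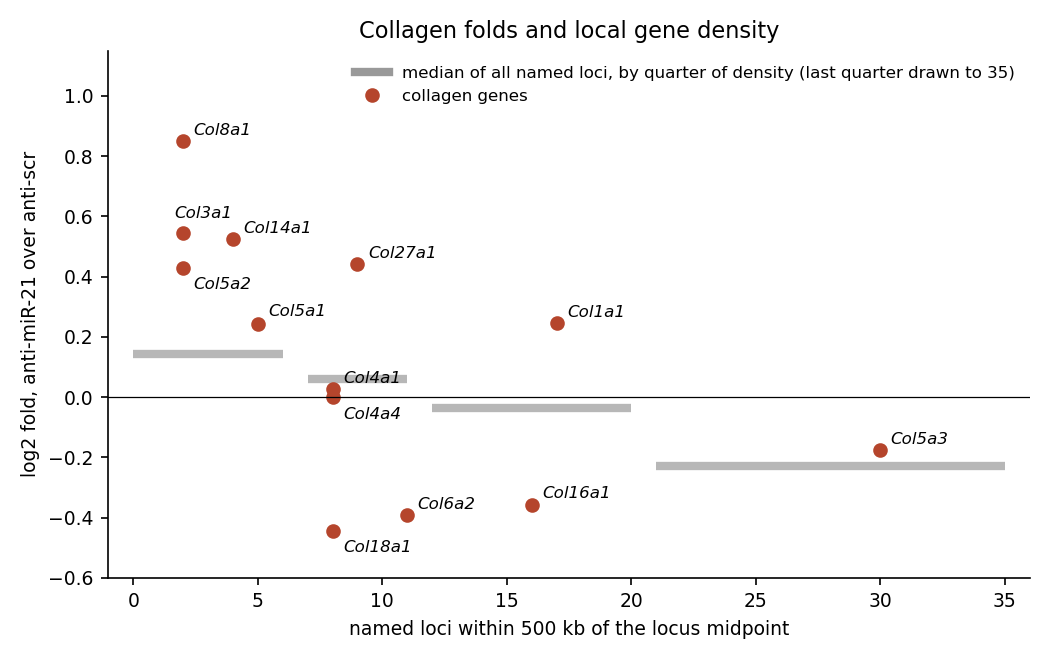
Log2 fold of the 13 collagen genes (red) against the number of named loci within 500 kb, with grey bars for the median fold of all named loci in each of 4 strata of density. Col8a1, Col3a1, Col14a1, Col5a2 and Col5a1 lie above the bar of the sparsest stratum, and Col1a1, Col27a1 and Col5a3 lie above theirs. Col18a1, Col6a2, Col16a1, Col4a1 and Col4a4 lie below theirs.

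In 7 lists of genes that make, assemble, bind or remove collagen, 97 genes were measured. Of the 80 tested, 0 were called in the authors' deposited table, against 0.815% of all tested loci. At an unadjusted p under 0.05 there were 6 higher, against 3.18% of all tested loci, and 3 lower, against 6.11%. The 18 genes of collagen hydroxylation and folding were split, with 9 higher and 8 lower in value among those with a mean FPKM of at least 1. Plod2, a lysyl hydroxylase that prepares stable crosslinks, stood at 9.63 and 15.5 FPKM (0.69; p = 0.0008 and q = 0.0746 in the authors' deposited table). The abundant members were nearly level: P4hb, a subunit of prolyl hydroxylase, had 190.6 and 190.7 FPKM, and Serpinh1, the collagen chaperone, had 145.5 and 141.7 FPKM.

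Among 11 genes of procollagen export and cleavage, Furin, a protease that activates propeptide-cutting enzymes, stood at 11.4 and 6.96 FPKM (-0.71; p = 0.0011 and q = 0.0869 in the authors' deposited table). The most abundant were the coat gene Sec13, at a locus shared with Ghrl (0.10), and Pcolce, an enhancer of propeptide removal (-0.21). Of 6 crosslinking genes, 5 were higher in value; the median log2 fold was 0.20. The most abundant of them were the transglutaminase gene Tgm2 (0.01) and the lysyl oxidase family gene Loxl2 (-0.34).

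Matrix proteins that bind collagen fibrils had a median log2 fold of 0.27, with 7 of 9 higher in value. Fn1, fibronectin, stood at 11.9 and 18.4 FPKM (0.62; p = 0.00115 and q = 0.0897 in the authors' deposited table). Bgn, a small proteoglycan, stood at 173.8 and 233.5 FPKM (0.43; p = 0.0221 in the authors' deposited table). Lum, another, stood at 265.8 and 348.4 FPKM (0.39; p = 0.0486 in the authors' deposited table). The most abundant were Sparc, a collagen-binding protein (0.21), and the proteoglycan Dcn (0.27).

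Among 18 genes of collagen removal, the membrane-bound metalloprotease gene Mmp15 stood at 10.0 and 6.26 FPKM (-0.68; p = 0.0024 in the authors' deposited table). The most abundant were the metalloprotease inhibitors Timp3 (0.50) and Timp2 (0.06). Among 9 receptors, the uptake receptor Mrc1 stood at 16.8 and 24.3 FPKM (0.53; p = 0.006 in the authors' deposited table). The collagen-sensing kinase Ddr1 stood at 10.4 and 7.30 FPKM (-0.51; p = 0.0325 in the authors' deposited table). The most abundant were the integrin genes Itgb1 (0.22) and Itga1, at a locus shared with Pelo (0.01). Among 23 regulators of collagen genes the median log2 fold was 0.15. Ctgf, a matricellular growth factor, stood at 146.6 and 199.1 FPKM (0.44; p = 0.0219 in the authors' deposited table), and Yap1, a mechanically controlled coactivator, at 59.8 and 67.1 FPKM (0.17).

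**Figure D4:**
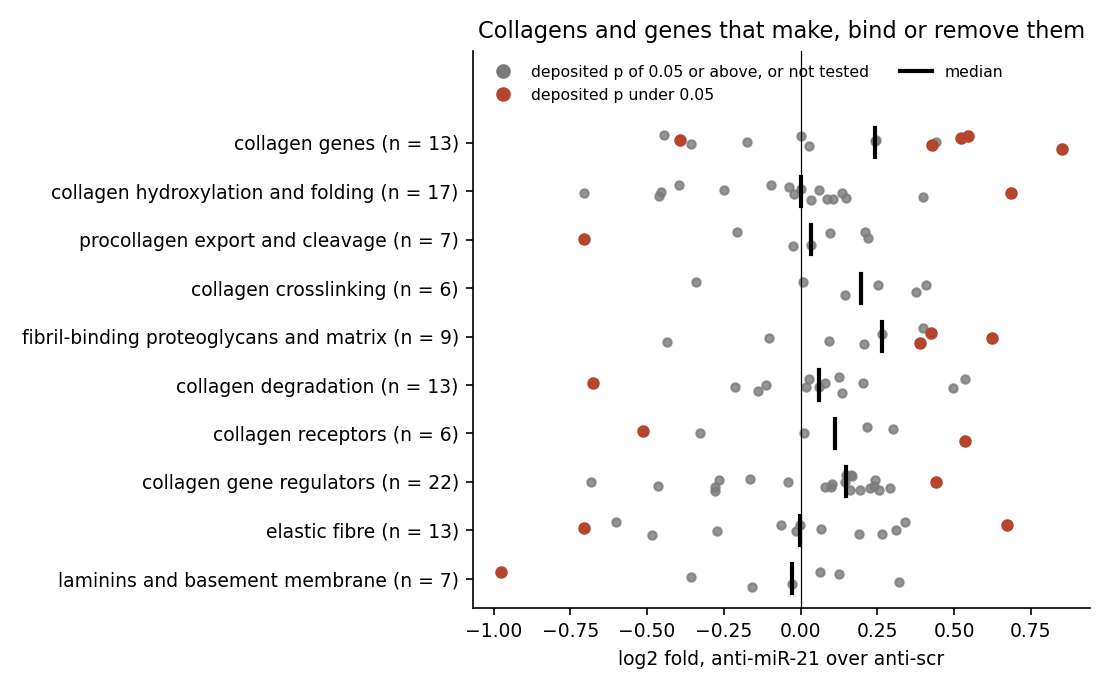
Log2 fold of each gene with a mean FPKM of at least 1 for the collagens, for 7 lists of genes that act on collagen and for 2 other matrix lists; red points have a deposited p under 0.05 and black bars are medians. The median is 0.24 for the collagens and 0.27 for fibril-binding matrix genes.

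Of 18 elastic fibre genes looked for, 15 were analysed here. Among the 13 with a mean FPKM of at least 1, 6 were higher and 7 lower in value. The fibrillin gene Fbn1 rose from 15.2 to 24.2 FPKM (0.67; q = 0.0261 in the authors' deposited table), and Ltbp4, which anchors latent growth factor, stood at 20.6 and 12.6 FPKM (-0.70). The most abundant were Mfap5 (0.31) and Efemp1 (0.19). For laminins and basement membrane, only 10 of 16 genes looked for were analysed here. Among the 7 with a mean FPKM of at least 1, 3 were higher and 4 lower in value. Lamb2, a laminin beta chain, fell from 102.7 to 52.3 FPKM (-0.97; q = 0.0211 in the authors' deposited table). The most abundant were Sparcl1 (-0.16) and Lamc1 (0.13). Read as a normal deviate, the deposited statistics of Fbn1 and Lamb2 give an adjusted p of 0.789 and 0.715 (Benjamini-Hochberg, from the Cuffdiff statistic), which ends both calls. Differences between these lists and the collagens were not tested.

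Markers of several cell types differed in value beside the collagens. Some are also in the lists above: Pdgfra, Tcf21, Dcn, Lum, Ddr2 and Mfap5 for fibroblasts, Fap and Comp for myofibroblasts, Mrc1 for macrophages. These genes are not separate from the counts given there. Of 9 fibroblast markers, 8 were higher in value and 0 were called; their summed FPKM was 2099 under the control and 2322 under the inhibitor, with Dcn at 0.27 and Gsn at -0.55. Of 6 myofibroblast markers, 3 were higher in value, with sums of 219.4 and 215.7. Among them Postn was called (1.31; q = 0.0131 in the authors' deposited table), and Acta2 stood at -0.34 and Tagln at -0.34. Of 9 macrophage markers, 7 were higher in value, with sums of 337.3 and 435.3, Lyz2 at 0.60 and C1qb at 0.06. Of 8 cardiomyocyte loci, 7 were lower in value, with sums of 96388 and 75542. Myl3 among them was called (-0.81), Tnni3 stood at -0.46, the locus shared by Myh6 and Myh7 at -0.73, and the abundant Myl2 and Actc1 at -0.38 and -0.18. Of 7 endothelial markers 2 were higher in value (384.4 and 385.5 FPKM in sum; Pecam1 -0.17, Tek 0.29), and of 8 mural cell markers 4 were (693.8 and 780.1; Rgs5 0.22, Abcc9 0.18). Chondrocyte and valve markers summed to 1.62 and 1.54 FPKM, nearly all from Chad, with Matn1 listed at 0 in both groups. With the statistic read as a normal deviate, the adjusted p was 0.00108 for Postn, which keeps its call, and 0.517 for Myl3, which loses it (Benjamini-Hochberg, from the Cuffdiff statistic). The part of these cell types in the collagen values was not tested.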

How the data were processed

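RNA of left ventricle was measured in 4 libraries, 2 per group. The authors deposited FPKM, 1 value per group and locus, beside a statistic, a p-value and a q-value. Tools named by the submitters' processing notes are cutadapt, Cuffdiff, TopHat2 2.0.10 and Cufflinks 2.0.10, with build rn5; annotation and options are not given there. A further table the authors deposited holds a read count and the percent of reads mapped for each library. Having 1 value per group, the files allow no spread between pools and no refit, so calls rest on the deposited q. FPKM are relative: a change in abundant transcripts shifts the others.

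Cells were realigned in 97 displaced rows. The locus with the highest mean FPKM stood for a gene with several. Folds, sums and alternatives were computed with Python 3.11.15, pandas 2.3.3 and scipy 1.17.1; the Benjamini-Hochberg step was tested on simulated data. Positions are as deposited. Members, lists and rules were chosen with earlier results of these data known. The text names every member, and from each list the called genes, those with an unadjusted p under 0.05 and the 2 most abundant.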

Additional observations from a re-analysis of the deposited data

How the results depend on the processing

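Leaving out a replicate could not be run on group values. No paired analysis was possible because the deposited columns carry no value per pool. The number of called collagen genes, 1, was also 1 (Col8a1) at q thresholds of 0.1 and 0.2, under both recomputations of q, with a fold of at least 1.5 required, with every locus counted and without rows of several symbols. It was 0 at a q threshold of 0.01, which no locus could pass, as the smallest deposited q was 0.0131. It was 5 at an unadjusted p under 0.05. In an alternative chosen after seeing the data, it was 0 with the statistic read as a normal deviate. The median log2 fold, 0.24, was 0.065 with a minimum mean FPKM of 0.1 and 0.11 with none. In alternatives chosen after seeing the data it was 0.099 less the median of each gene's density stratum and 0.13 without Col3a1. The other 8 settings gave 0.15 to 0.24. The log2 ratio of the sums, 0.42, was 0.13 without Col3a1 and 0.11 without Col1a1, Col1a2 and Col3a1. In the lists of genes acting on collagen, 0 were called. There were 3 (Fn1, Furin and Plod2) at a q threshold of 0.1, for which no share of all loci is given here. At an unadjusted p under 0.05 there were 9 of 80, against 9.3% of all tested loci. Both thresholds were chosen after seeing the data. The cause of these changes was not tested, except that the sums without Col3a1 leave out the gene with most of the difference in summed FPKM. Read totals are known per library but not the fragments behind each locus, and the 10 genes under a mean FPKM of 1 have no test.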
